A study of Mus musculus with 6 samples.

Results

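The 10 genes described here are markers of intestinal crypt stem and progenitor cells: *Lgr5*, *Prom1*, *Cd44*, *Lrig1*, *Olfm4*, *Smoc2*, *Ascl2*, *Sox9*, *Msi1* and *Slc12a2*. They were picked by symbol from the 20409 features of a bulk RNA-seq count table, and all 10 were present and passed the filter on low counts. The table came from the duodenal villus epithelium of 3 wild-type and 3 double mutant mice, with 1 polyA-enriched library per mouse, and each group held 1 male, numbered 1, and 2 females, numbered 2 and 3. Double mutant mice carried Smad4 fl/fl, 1 Ctnnb1 allele with a floxed exon 3 (whose removal stabilizes β-catenin) and Villin-CreERT2, a tamoxifen-inducible Cre active throughout the intestinal epithelium. They received tamoxifen on 4 consecutive days at 0.05 g/kg, and villi were collected 7 days after induction. The wild-type mice were age-matched littermates that were not injected, so the mutations and tamoxifen exposure cannot be told apart in this comparison. Ages, and whether the wild-type littermates carried floxed alleles, were not given in the sources used here. The sample labels and the study's methods give different EDTA steps for isolating the villus epithelium, and how much crypt tissue each villus fraction carried was not measured.

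The intestinal epithelium is renewed from stem cells at the crypt base, whose daughters divide in the crypt and differentiate as they move onto the villus. Wnt signalling through β-catenin is highest at the crypt base and maintains the stem cells, whereas BMP signalling through Smad4 is stronger towards the villus and favours differentiation. Villus epithelium is therefore normally poor in the transcripts of crypt stem and progenitor genes.

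Library totals ran from 19678507 to 26337318 counts, and 3 counts, taken as the smallest level this depth can show, corresponded to 0.114 to 0.152 CPM (counts relative to the library total). *Smad4*, the deleted gene, was at 120, 180 and 145 CPM in the wild-type mice. It was at 26.1, 36.8 and 32.1 CPM in the double mutant mice and fell by 2.22 on the log2 scale (adjusted p = 0.000145, edgeR's quasi-likelihood test). *Ctnnb1*, of which the mutation removes 1 exon, differed by -0.15 (adjusted p = 0.359). The 12 enterocyte markers, which define the labelled tissue, held 4.94 to 5.42% of all counts in wild-type mice and 3.20 to 3.52% in double mutant mice. Wild-type mouse 1 stood apart from the other wild-type mice in the stem cell markers and in Paneth and goblet cell markers, so results that rest on it are given with and without it.

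The stretches of 250 bases before the annotated start of 3 of the genes are shown: *Prom1*, which had the largest rise, *Lgr5*, the classical stem cell marker, and *Lrig1*, which held a motif match. All 3 rose in double mutant villi. Each is read 5′ to 3′ on the strand of the gene from the mm9 genome. Capitals mark letters GTGGGAA, a core of sites bound by RBPJ, the DNA-binding partner of Notch.
Prom1, chr5:44493272-44493521, minus strand: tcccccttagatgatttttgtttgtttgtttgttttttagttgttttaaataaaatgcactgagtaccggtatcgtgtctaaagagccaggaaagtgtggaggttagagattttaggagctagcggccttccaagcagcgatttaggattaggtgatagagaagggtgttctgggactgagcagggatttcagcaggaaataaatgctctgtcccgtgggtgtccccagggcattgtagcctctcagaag
Lgr5, chr10:115024837-115025086, minus strand: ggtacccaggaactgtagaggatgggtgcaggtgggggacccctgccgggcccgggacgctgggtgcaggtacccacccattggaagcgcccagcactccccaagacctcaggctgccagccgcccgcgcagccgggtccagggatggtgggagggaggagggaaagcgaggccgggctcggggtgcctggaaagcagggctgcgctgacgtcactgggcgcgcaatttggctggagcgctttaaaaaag
Lrig1, chr6:94650153-94650402, minus strand: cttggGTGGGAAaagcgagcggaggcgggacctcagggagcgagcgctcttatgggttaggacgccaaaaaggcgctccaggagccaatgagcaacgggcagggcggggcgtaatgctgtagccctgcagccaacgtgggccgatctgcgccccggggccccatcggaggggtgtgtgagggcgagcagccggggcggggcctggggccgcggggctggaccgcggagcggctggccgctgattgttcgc

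GC content was 44.8% before *Prom1*, 68% before *Lgr5* and 70.8% before *Lrig1*, against a median of 58% over 15845 such windows. Both strands were searched for CTTTG followed by AA, AT, TA or TT, letters that TCF/LEF factors, the DNA-binding partners of β-catenin, can bind. None of the 8 members searched held them in this window, as against 11.3% of all windows. The RBPJ letters were found in 1 of 8 members, *Lrig1*, 245 bases before the start, and in 5.06% of all windows. These matches describe letters within 250 bases and not binding.

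The comparison of double mutant with wild-type villi asked which of the crypt markers were raised in the villus after loss of Smad4 and stabilization of β-catenin. *Prom1*, *Cd44*, *Lrig1*, *Sox9*, *Lgr5* and *Smoc2* rose, none of the 10 fell, and *Slc12a2*, *Olfm4*, *Ascl2* and *Msi1* did not pass the test (adjusted p under 0.05, edgeR's quasi-likelihood test). Across all 13346 genes tested, 36.8% were called in either direction, 19.7% higher and 17% lower. The count of lower genes among the 10 was 0 also at an unadjusted p under 0.05 and by DESeq2 and limma-voom. The log2 fold changes of the 10 genes were all positive, from 0.36 to 3.11 with a median of 1.80, whereas the median over all genes was 0.02 and 51.3% were positive. In 8 of the 10 genes every double mutant mouse was above every wild-type mouse, against 28.1% of all genes. A log2 fold change of at least 2 with a call was seen for *Prom1*, *Lgr5* and *Cd44*, against 3.04% of all genes. Without wild-type mouse 1 or without double mutant mouse 1 it was seen for 1 gene, *Prom1*, against 2.66% and 2.82% of all genes. The summed level of the 10 genes was 43.5, 129 and 155 CPM in wild-type mice 1, 2 and 3 and 506, 390 and 445 CPM in double mutant mice 1, 2 and 3. In this bulk tissue, a change in the number of cells of a type and a change in RNA per cell cannot be told apart.

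**Figure D1:**
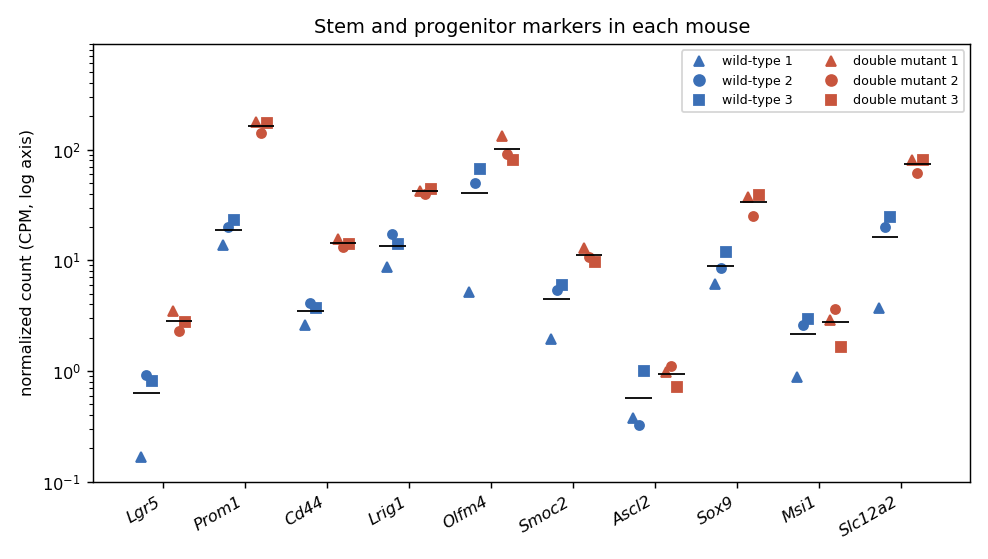
Normalized counts (CPM, log axis) of the 10 crypt markers in each of the 3 wild-type and 3 double mutant mice, with 1 point per mouse and a bar at the group mean. *Ascl2* and *Msi1* are the genes whose groups overlap, and wild-type mouse 1 is the lowest wild-type mouse for every gene except *Ascl2*.

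Among the surface and receptor genes, *Prom1* encodes prominin-1 (CD133), a membrane protein of cell protrusions that marks stem and early progenitor cells. *Prom1* (ENSMUSG00000029086, chr5:44384864-44493271, minus strand) was at 13.7, 20.0 and 23.2 CPM in wild-type mice 1, 2 and 3 and at 177, 140 and 173 CPM in double mutant mice 1, 2 and 3. The groups were far apart, and each was tight. The means were 19.0 ± 4.83 and 163.5 ± 20.1 CPM (SD, n = 3 each), a ratio of 8.62. The log2 fold change was 3.11 (SE 0.206, 95% interval 2.64 to 3.58, adjusted p = 5.86e-05, edgeR's quasi-likelihood test). It ranked 94 among all genes by the size of the rise. An exon of *Prom1* overlaps *Gm16401* on the opposite strand, which had 3 to 26 counts per mouse.

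*Lgr5* encodes a receptor for R-spondins, which strengthen Wnt signalling, and is the classical marker of crypt base columnar stem cells. *Lgr5* (ENSMUSG00000020140, chr10:114887367-115024836, minus strand) had 4, 17 and 16 counts in wild-type mice 1, 2 and 3 and 74, 50 and 58 counts in double mutant mice 1, 2 and 3. These correspond to 0.167, 0.925 and 0.809 CPM and to 3.47, 2.32 and 2.75 CPM. Every double mutant mouse was higher than every wild-type mouse, but the gene stayed at a low level in both groups and wild-type mouse 1 was near the limit of 3 counts. The log2 fold change was 2.19 (SE 0.542, 95% interval 0.96 to 3.43, adjusted p = 0.0139, edgeR's quasi-likelihood test). Leaving out wild-type mouse 1 gave 1.71 (adjusted p = 0.00485), and without double mutant mouse 1 the adjusted p was 0.0528.

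*Cd44* encodes the hyaluronan receptor CD44, a product of a Wnt target gene of crypt cells. *Cd44* (ENSMUSG00000005087, chr2:102651298-102741822, minus strand) was at 2.58, 4.13 and 3.74 CPM in wild-type mice and at 15.4, 13.2 and 14.0 CPM in double mutant mice. Both groups were tight and did not overlap. The log2 fold change was 2.03 (SE 0.216, 95% interval 1.54 to 2.52, adjusted p = 0.000353, edgeR's quasi-likelihood test).

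*Lrig1* encodes a transmembrane protein that restrains ErbB receptor signalling and marks crypt stem and progenitor cells. *Lrig1* (ENSMUSG00000030029, chr6:94554523-94650152, minus strand) was at 8.79, 17.2 and 14.0 CPM in wild-type mice and at 42.4, 39.7 and 43.8 CPM in double mutant mice. The double mutant mice lay closer together than the wild-type mice, and the groups did not overlap. The log2 fold change was 1.66 (SE 0.224, 95% interval 1.14 to 2.17, adjusted p = 0.00103, edgeR's quasi-likelihood test). An exon of *Lrig1* overlaps *Slc25a26* on the opposite strand, which had 78 to 204 counts per mouse, and the strand setting of the counting was not given in the sources used here.

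Of the secreted products, *Smoc2* was called with all mice and *Olfm4* was not. *Olfm4*, an abundant secreted glycoprotein of crypt base stem cells, and *Smoc2*, an extracellular calcium-binding protein of the stem cell signature, are both expressed at the crypt base. *Olfm4* (ENSMUSG00000022026, chr14:80400109-80422667, plus strand) was at 5.17, 50.4 and 66.8 CPM in wild-type mice 1, 2 and 3 and at 133, 92.0 and 80.2 CPM in double mutant mice 1, 2 and 3. The groups did not overlap, yet wild-type mouse 3 was close to the lowest double mutant mouse, while wild-type mouse 1 had 8.82% of the mean of the other wild-type mice. With all mice the log2 fold change was 1.32 with an SE of 0.909 and a 95% interval from -1.05 to 3.69 (adjusted p = 0.319, edgeR's quasi-likelihood test). When wild-type mouse 1 was left out, it was smaller, 0.79, but called (95% interval 0.28 to 1.31, adjusted p = 0.0237).

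*Smoc2* (ENSMUSG00000023886, chr17:14416513-14541797, plus strand) was at 1.96, 5.39 and 5.96 CPM in wild-type mice and at 12.8, 10.8 and 9.68 CPM in double mutant mice. All double mutant mice were above all wild-type mice, and the log2 fold change was 1.33 (SE 0.373, 95% interval 0.47 to 2.19, adjusted p = 0.0245, edgeR's quasi-likelihood test). It was 0.97 without wild-type mouse 1 (adjusted p = 0.00451). The call was lost without double mutant mouse 1 (log2 fold change 1.22, adjusted p = 0.0800) and without double mutant mouse 2 (log2 fold change 1.345, adjusted p = 0.0688).

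Of the transcription factors, *Sox9* was called and *Ascl2* was not, and the difference between them was not tested. *Sox9*, an HMG-box factor expressed in crypt stem, progenitor and Paneth cells, lies at chr11:112643538-112649074 on the plus strand (ENSMUSG00000000567). It was at 6.17, 8.49 and 11.8 CPM in wild-type mice and at 37.7, 25.0 and 39.1 CPM in double mutant mice. The lowest double mutant mouse was above the highest wild-type mouse, and the log2 fold change was 1.95 (SE 0.266, 95% interval 1.34 to 2.56, adjusted p = 0.00112, edgeR's quasi-likelihood test).

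*Ascl2*, a basic helix-loop-helix factor and Wnt target that maintains crypt base stem cells, lies at chr7:150152727-150155169 on the minus strand (ENSMUSG00000009248). It had 9, 6 and 20 counts in wild-type mice 1, 2 and 3 and 21, 24 and 15 counts in double mutant mice 1, 2 and 3. Wild-type mouse 3 was above double mutant mouse 3, so the groups overlapped. The means were 0.571 ± 0.382 and 0.937 ± 0.205 CPM (SD, n = 3 each), and the log2 fold change was 0.72 with a 95% interval from -0.50 to 1.93 (adjusted p = 0.324, edgeR's quasi-likelihood test). It was 0.47 without wild-type mouse 1, 0.45 without wild-type mouse 2 and 1.39 without wild-type mouse 3 (adjusted p = 0.0876), and was not called in any of these fits.

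*Msi1* encodes an RNA-binding protein that marks crypt stem and progenitor cells. *Msi1* (ENSMUSG00000054256, chr5:115879608-115905707, plus strand) was at 0.875, 2.61 and 2.98 CPM in wild-type mice and at 2.91, 3.66 and 1.66 CPM in double mutant mice. Double mutant mouse 3 was below wild-type mice 2 and 3. The log2 fold change was 0.36 with all mice (95% interval -0.75 to 1.47, adjusted p = 0.599, edgeR's quasi-likelihood test) and -0.03 without wild-type mouse 1 (adjusted p = 0.960).

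*Slc12a2* encodes the sodium-potassium-chloride cotransporter NKCC1, which supplies chloride for secretion by crypt cells. *Slc12a2* (ENSMUSG00000024597, chr18:58038332-58106475, plus strand) was at 3.75, 19.9 and 24.8 CPM in wild-type mice 1, 2 and 3 and at 80.5, 61.7 and 80.1 CPM in double mutant mice 1, 2 and 3. The groups did not overlap and lay well apart, but the wild-type mice were widely spread. The log2 fold change was 2.21 with an SE of 0.673 and a 95% interval from 0.50 to 3.91 (adjusted p = 0.0541, edgeR's quasi-likelihood test). Without wild-type mouse 1 it was 1.73 (95% interval 1.34 to 2.12, adjusted p = 9.12e-05). With all mice it was called by DESeq2 (adjusted p = 0.011) and by limma-voom (adjusted p = 0.00847). In edgeR's test it was called with library size alone (adjusted p = 0.0459) and with sex as a covariate (adjusted p = 0.0488). That test did not call it with RLE factors (adjusted p = 0.056), without a filter on low counts (adjusted p = 0.126), with a filter of 10 counts in 3 mice (adjusted p = 0.0548) or with the replicate block (adjusted p = 0.0985). Of the 6 fits that left out 1 mouse, 1 called it.

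**Figure D2:**
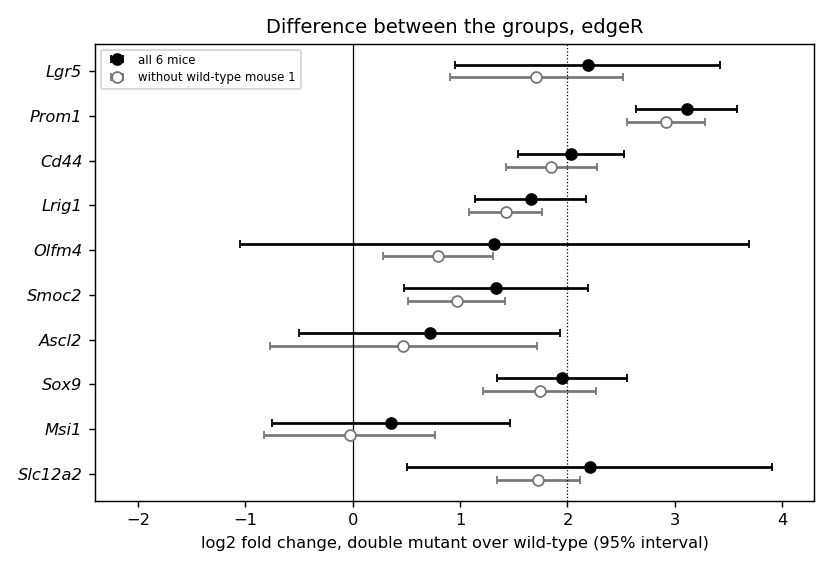
Log2 fold change (double mutant over wild-type, edgeR) of each crypt marker with its 95% interval, from all 6 mice (filled) and without wild-type mouse 1 (open), with a dotted line at 2. The interval of *Olfm4* narrows from -1.05 to 3.69 to 0.28 to 1.31 when wild-type mouse 1 is left out, and that of *Slc12a2* from 0.50 to 3.91 to 1.34 to 2.12.

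Without wild-type mouse 1, 8 of the 10 genes were called higher and none lower, against 20.2% of 13769 genes called higher. *Olfm4* and *Slc12a2* joined the 6 genes called with all mice, and *Ascl2* and *Msi1* remained uncalled. The same 8 genes were called in the females alone, against 20.9% of all genes. Wild-type mouse 1 was the wild-type male, so its low level and its sex cannot be told apart.

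The size of the rise depended on which mice were set side by side. Double mutant male 1 had 20.9 times the *Lgr5*, 25.7 times the *Olfm4*, 21.5 times the *Slc12a2* and 12.9 times the *Prom1* level of wild-type male 1. In the females, the ratio of the means was 2.93 for *Lgr5*, 1.47 for *Olfm4*, 3.18 for *Slc12a2* and 7.26 for *Prom1*. *Olfm4* had the largest ratio of the 10 genes between the males, and *Prom1* had it between the females. With 1 male per group, the difference between the sexes was not tested.

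Wild-type mouse 1 was low to unequal degrees. Relative to the mean of wild-type mice 2 and 3, it had 63.4% for *Prom1*, 65.6% for *Cd44*, 60.9% for *Sox9*, 56.3% for *Lrig1* and 56.1% for *Ascl2*. It had 34.5% for *Smoc2*, 31.3% for *Msi1*, 19.2% for *Lgr5*, 16.8% for *Slc12a2* and 8.82% for *Olfm4*. The calls of *Prom1*, *Cd44*, *Sox9* and *Lrig1*, the 4 genes least reduced in this mouse, held whichever mouse was left out.

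Markers of Paneth cells, the granular neighbours of crypt base stem cells, moved with this mouse. Of 10 Paneth cell markers, 9 were found in the table by symbol. Their summed level was 24.2, 973 and 1582 CPM in wild-type mice 1, 2 and 3 and 163, 259 and 244 CPM in double mutant mice. *Ang4*, an antimicrobial angiogenin, was at 1.58, 371 and 533 CPM in wild-type mice and at 11.5, 12.7 and 7.36 CPM in double mutant mice, a log2 difference of -4.84 (adjusted p = 0.123, edgeR's quasi-likelihood test). *Mmp7*, the protease that activates Paneth cell defensins, differed by 1.65 (adjusted p = 0.335). Of 7 tested Paneth cell markers, 0 were called higher and 1 was called lower, with a median of -1.69; at an unadjusted p under 0.05 the count higher was 0 with edgeR and 1 with limma-voom, and DESeq2 called 0 higher and 3 lower of 9. With wild-type mouse 1 left out, 1 of 8 was higher and 4 were lower, against 17.1% of all genes called lower, and the median was -2.50.

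The summed level of goblet cell markers was also low in wild-type mouse 1. It was 125, 11620 and 11040 CPM in wild-type mice 1, 2 and 3 and 5064, 4669 and 5060 CPM in double mutant mice. The mucus protein *Fcgbp* differed by -0.94 (adjusted p = 0.671, edgeR's quasi-likelihood test). The gene that the mm9 annotation names *Clca1* (ENSMUSG00000056025) rose by 1.496 (adjusted p = 0.00679, edgeR's quasi-likelihood test). It was the only call among 8 markers, whose median was 0.04. Whether this identifier is the goblet cell gene known by that symbol was not checked. For it, wild-type mouse 1 had 59.3% of the mean of wild-type mice 2 and 3, against 0.833 to 4.63% for the other goblet cell markers. With that mouse left out, 1 of 8 was higher and 5 were lower, and the median was -0.53. Whether a different share of crypt or secretory cells in wild-type mouse 1 contributed to the stem cell marker differences was not tested.

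**Figure D3:**
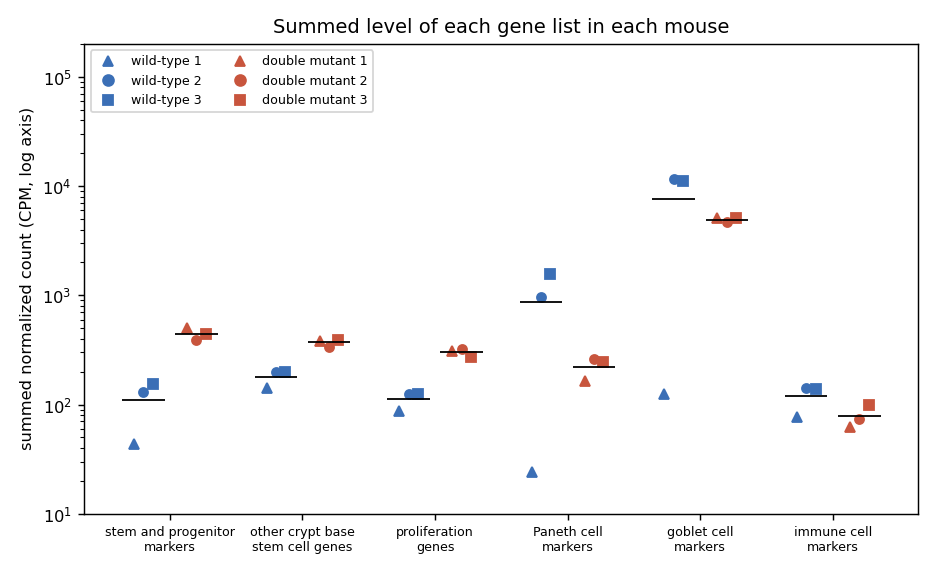
Summed normalized count (CPM, log axis) of 6 gene lists in each mouse, with 1 point per mouse and a bar at the group mean. Wild-type mouse 1 lies at 24.2 CPM for Paneth cell markers and at 125 CPM for goblet cell markers, while the other wild-type mice lie at 973 and 1582 CPM and at 11620 and 11040 CPM.

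Markers of cells from outside the epithelium were also counted. Of 10 stromal and endothelial markers, 7 were found in the table by symbol. Their summed level was 0.292, 0.870 and 0.354 CPM in wild-type mice and 4.37, 1.53 and 0.949 CPM in double mutant mice. *Pecam1*, an endothelial adhesion protein and the only one tested, differed by 0.79 (adjusted p = 0.378, edgeR's quasi-likelihood test). The smooth muscle genes *Acta2*, an actin, and *Des*, which encodes desmin, carried most of the sum in double mutant mouse 1. *Acta2* had 0, 0 and 3 counts in wild-type mice and 40, 8 and 0 counts in double mutant mice, and *Des* had 0, 0 and 2 and 35, 1 and 2 counts. The other 4 genes in the table, *Col1a1*, *Col1a2*, *Col3a1* and *Pdgfra*, had at most 8 counts in any mouse. Double mutant mouse 1 had the highest level of 6 of the 10 crypt markers (*Lgr5*, *Olfm4*, *Smoc2*, *Prom1*, *Cd44* and *Slc12a2*). Without it, *Prom1*, *Cd44*, *Lrig1* and *Sox9* were called higher, 4 of 10 against 15.9% of all genes. *Lgr5* and *Smoc2* lost their calls, but their log2 fold changes were close to those with all mice, at 2.03 and 1.22. The 11 of 12 immune cell markers found in the table by symbol summed to 76.4, 142 and 140 CPM in wild-type mice and to 62.6, 73.3 and 98.9 CPM in double mutant mice. Of 8 tested, 0 were higher and 2 were lower with edgeR, with a median of -0.92, whereas DESeq2 called 1 higher and 5 lower of 10; *Ptprc*, the pan-leukocyte phosphatase CD45, fell by 1.29 on the log2 scale (adjusted p = 0.00545), whereas *Cd68*, a macrophage marker, differed by 0.72 (adjusted p = 0.357).

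Per length of annotated exon, the levels of the 10 genes kept much of their order. In wild-type villi *Olfm4* was highest at 15.9 ± 12.4 CPM per kilobase (SD, n = 3), followed by *Prom1* at 4.20 ± 1.07, *Slc12a2* at 2.47 ± 1.69, *Lrig1* at 2.39 ± 0.764, *Sox9* at 2.13 ± 0.682 and *Smoc2* at 1.55 ± 0.755 CPM per kilobase. *Cd44* at 0.509 ± 0.118, *Msi1* at 0.372 ± 0.194, *Ascl2* at 0.354 ± 0.237 and *Lgr5* at 0.0617 ± 0.0398 CPM per kilobase were lowest. Each neighbouring pair in the order from *Olfm4* to *Smoc2* overlapped across wild-type mice, as did *Cd44*, *Msi1* and *Ascl2*, while *Lgr5* lay below all others.

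In double mutant villi *Olfm4* at 39.5 ± 10.7 and *Prom1* at 36.2 ± 4.44 CPM per kilobase overlapped. *Slc12a2* followed at 11.4 ± 1.65, *Sox9* at 8.20 ± 1.88, *Lrig1* at 7.51 ± 0.375, *Smoc2* at 3.87 ± 0.554 and *Cd44* at 2.07 ± 0.166 CPM per kilobase. *Ascl2* at 0.581 ± 0.127, *Msi1* at 0.473 ± 0.174 and *Lgr5* at 0.278 ± 0.0568 CPM per kilobase were lowest, with overlap between *Ascl2* and *Msi1* and between *Msi1* and *Lgr5*. *Sox9* and *Lrig1* also overlapped. By its mean, *Lgr5* was thus the lowest of the 10 per length in both groups, although it rose. The length used was that of all annotated exons of a gene merged, 10264 bases for *Lgr5*, and other lengths could change this order.

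The mix of the 10 genes, in counts not divided by length, also shifted. *Prom1* took 31.5, 15.5 and 15.0% of their summed counts in wild-type mice 1, 2 and 3 and 35.0, 36.0 and 38.9% in double mutant mice. *Olfm4* took 11.9, 38.9 and 43.1% in wild-type mice and 26.2, 23.6 and 18.01% in double mutant mice. *Prom1* was the larger part in every double mutant mouse and in wild-type mouse 1, and *Olfm4* in wild-type mice 2 and 3. *Lgr5* stayed between 0.38 and 0.71% in all 6 mice. The sums behind these shares were 1045 to 3068 counts in wild-type mice and 8406 to 10768 counts in double mutant mice.

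**Figure D4:**
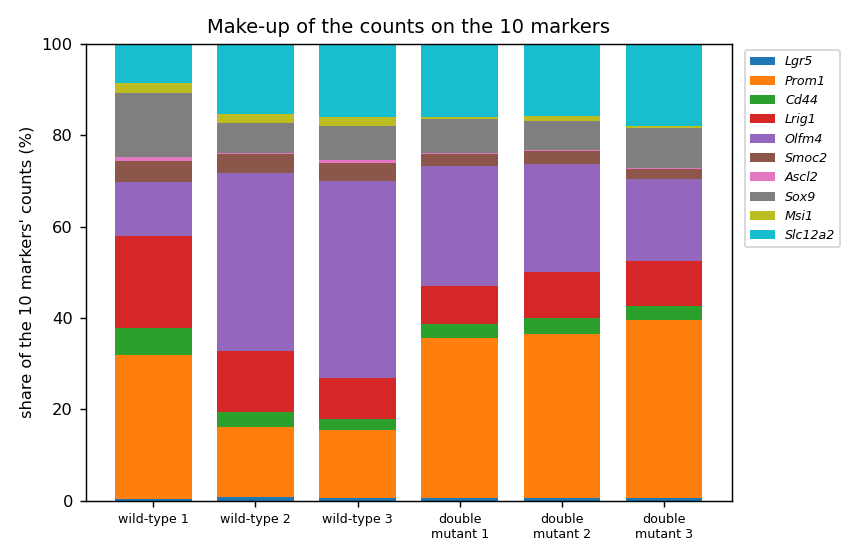
Share of each crypt marker in the summed counts of the 10 genes (%), stacked for each of the 6 mice. *Prom1* takes 35.0 to 38.9% in double mutant mice, and *Olfm4* takes 38.9 and 43.1% in wild-type mice 2 and 3.

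Each member was set against its most abundant paralog within each mouse, which cancels library scaling, for the 7 members with a paralog above 3 counts in every mouse. An exact two-sided permutation test of 3 against 3 mice cannot go below p = 0.1. *Slc12a2* was set against *Slc12a7*, a potassium-chloride cotransporter, with a mean log2 ratio going from -4.62 ± 1.41 in wild-type mice to -1.71 ± 0.244 in double mutant mice (SD, n = 3 each), a difference of 2.91 (exact p = 0.1, adjusted p = 0.175 over 7 pairs). *Slc12a7* itself fell by 0.33 on the log2 scale (adjusted p = 0.0483, edgeR's quasi-likelihood test).

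*Lgr5* to *Lgr4*, another R-spondin receptor that is broadly expressed, went from -7.50 ± 1.17 to -5.68 ± 0.299, a difference of 1.82 (exact p = 0.1, adjusted p = 0.175). *Lgr4* went from 91.7 ± 18.9 to 146 ± 27.5 CPM and rose by 0.67 on the log2 scale (adjusted p = 0.0217, edgeR's quasi-likelihood test). The ratio *Lrig1* to *Lrig3* went from -1.06 ± 0.577 to -0.14 ± 0.051, a difference of 0.93 (exact p = 0.1, adjusted p = 0.175), and *Lrig3* rose by 0.78 (adjusted p = 0.0011). In these pairs, and in *Smoc2* to *Smoc1* with a difference of 2.56 (exact p = 0.1, adjusted p = 0.175), the groups did not overlap. Leaving out wild-type mouse 1 reduced the differences to 1.15 for *Lgr5*, 0.60 for *Lrig1*, 2.20 for *Smoc2* and 2.10 for *Slc12a2*.

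The other 3 ratios overlapped between the groups. *Olfm4* to *Olfm1* differed by 2.86 (exact p = 0.2, adjusted p = 0.28) and *Sox9* to *Sox4* by 0.55 (exact p = 0.3, adjusted p = 0.35), and these were 1.41 and 0.86 without wild-type mouse 1. *Msi1* to *Msi2*, its close relative among RNA-binding proteins, differed by -0.08 (exact p = 1, adjusted p = 1) and by -0.54 without that mouse, while *Msi2* itself rose by 0.54 (adjusted p = 0.0195, edgeR's quasi-likelihood test). *Sox4* differed by 1.31 (adjusted p = 0.0648) and *Olfm1* by -0.79 (adjusted p = 0.333), and *Smoc1* was too low to test. Over the paralogs, 10 of 23 were tested, 3 were higher and 3 lower, against 19.7% higher and 17% lower over all genes. Their median was 0.39 (0.22 without wild-type mouse 1).

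**Figure D5:**
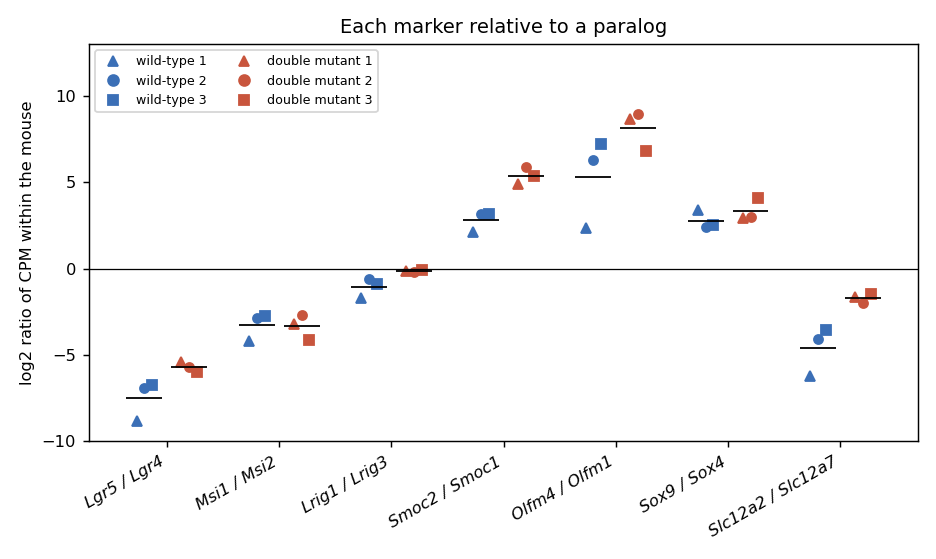
Log2 ratio of each crypt marker to its paralog within each mouse, for 7 pairs, with 1 point per mouse and a bar at the group mean. The groups do not overlap for the pairs of *Lgr5*, *Lrig1*, *Smoc2* and *Slc12a2*, and they overlap for those of *Msi1*, *Olfm4* and *Sox9*.

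Other genes linked to crypt base stem cells were called higher or did not pass the test. Of 17 such genes 16 were tested, 9 were higher, none was lower and 7 did not pass the test, with a median log2 fold change of 1.62. Their summed level was 142, 199 and 199 CPM in wild-type mice and 383, 340 and 390 CPM in double mutant mice. The count lower was 0 also at an unadjusted p under 0.05. The largest rise was that of *Nr2e3*, a nuclear receptor, from 0.265 ± 0.1501 to 2.29 ± 0.616 CPM (SD, n = 3 each; adjusted p = 0.00206, edgeR's quasi-likelihood test). The growth factor *Pdgfa* had the smallest value, 0.06 (adjusted p = 0.726).

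Among 4 genes of reserve or regenerating stem cells, *Clu* and *Hopx* rose. *Clu*, which encodes clusterin and marks revival stem cells after injury, went from 0.454 ± 0.233 to 2.91 ± 0.202 CPM, a difference of 2.69 on the log2 scale (adjusted p = 0.00192, edgeR's quasi-likelihood test). *Hopx*, a homeodomain-only protein, went from 26.8 ± 4.38 to 74.9 ± 16.0 CPM (1.48, adjusted p = 0.000656). The Polycomb gene *Bmi1* differed by 0.39 (adjusted p = 0.13) and the telomerase gene *Tert* by 0.43 (adjusted p = 0.434), and the median of the 4 was 0.95.

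Proliferation genes were called higher in 14 of 16 cases and lower in 0, also at an unadjusted p under 0.05, with a median of 2.11. Their summed level was 86.5, 126 and 124 CPM in wild-type mice and 308, 325 and 271 CPM in double mutant mice. *Rrm2*, a subunit of ribonucleotide reductase, went from 1.39 ± 0.775 to 8.86 ± 1.18 CPM (2.69, adjusted p = 0.0022, edgeR's quasi-likelihood test), and *Mcm6*, a subunit of the replicative helicase, had the smallest difference, 0.36 (adjusted p = 0.266). The number called higher was 14 also without wild-type mouse 1.

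Wnt target and Notch pathway genes were called in both directions. Of 9 tested Wnt target genes 5 were higher and 1 lower, with a median of 0.87. The transcription factor *Myc* rose by 3.53 (adjusted p = 0.00234, edgeR's quasi-likelihood test), and the Wnt inhibitor *Apcdd1*, at 0 to 3.37 CPM, fell by 3.95 on the log2 scale (adjusted p = 0.0103). Of 9 tested Notch pathway genes 2 were higher and 2 lower (1 lower with limma-voom), with a median of 0.05. These shares are close to the 19.7% higher and 17% lower over all genes, and the median turned to -0.27 without wild-type mouse 1. *Hes1*, a transcriptional repressor induced by Notch, went from 11.6 ± 4.34 to 35.3 ± 4.47 CPM (1.61, adjusted p = 0.00222), while the ligand *Dll4* went from 20.6 ± 6.14 to 12.5 ± 1.46 CPM (-0.72, adjusted p = 0.0384).

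Markers of enterocytes, tuft cells and enteroendocrine cells were mostly lower. Of 12 enterocyte markers 9 were lower and 1 higher, with a median of -0.96; *Nt5e*, an ectonucleotidase, fell by 6.29 on the log2 scale (adjusted p = 7.06e-06, edgeR's quasi-likelihood test) and *Fabp1*, a fatty acid binding protein, rose by 0.82 (adjusted p = 0.0332). All 7 tested tuft cell markers were lower, with a median of -3.33, and *Sh2d6*, an adaptor protein, fell by 4.13 (adjusted p = 9.55e-05). Of 7 tested enteroendocrine markers 6 were lower and none higher, with a median of -1.45, and the hormone gene *Sct* fell by 2.55 (adjusted p = 0.000514). With wild-type mouse 1 left out, the numbers called higher and lower were 8 and 0 of 16 other crypt base stem cell genes, 2 and 0 of 4 reserve and regenerating stem cell genes, 5 and 1 of 9 Wnt target genes, 2 and 3 of 9 Notch pathway genes and 4 and 3 of 11 paralogs. They were 1 and 9 of 12 enterocyte, 0 and 7 of 7 tuft, 0 and 7 of 7 enteroendocrine and 0 and 6 of 8 immune cell markers.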

How the data were processed

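Duodenal villus epithelium from 3 double mutant and 3 wild-type mice was profiled by bulk polyA RNA-seq (150 bp reads). The authors aligned the reads to mm9 with HISAT2 and counted them per gene with featureCounts, and the deposited values are raw counts per mouse, with no normalization and no pooling. The handling of strand and of reads matching several genes was not given in the sources used here. Groups and replicate numbers came from the sample labels. Symbols and positions came from the GENCODE annotation of mm9, which held 20032 of 20073 Ensembl identifiers. A listed gene that this annotation holds under another symbol would not have been found. A further 336 features were numbered transcripts.

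From the counts onward, genes were kept by filterByExpr (13346 of 20409), scaled by TMM and tested with glmQLFit (robust) and glmQLFTest of edgeR 4.0.16 in R 4.3.3, with p-values adjusted over all tested genes by Benjamini-Hochberg and a call at an adjusted p under 0.05. A log2 fold change of 2 was a second threshold. CPM values are TMM-scaled. Replicates were separate mice. Depth was 19678507 to 26337318 counts per mouse, and the floor of 3 counts covers counting error only. The fit was first tested on simulated data.

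The genes and lists were chosen with earlier results of these data known. The text names all 10 genes, the targeted genes, the paired paralogs, and in each list the tested genes with the largest difference in each direction, with every gene of a list of 4. The untested stromal genes, *Pdgfa* and *Mcm6* were named after their values were seen. Alternatives were DESeq2 1.42.0, limma-voom (limma 3.58.1), RLE factors, library size alone, other filters, a replicate block, sex as a covariate, other fold thresholds, each mouse left out and, chosen after seeing the data, the females alone. Promoter sequences were read from the mm9 genome, and those of *Slc12a2* and *Msi1* are not reported here.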

Additional observations from a re-analysis of the deposited data

How the results depend on the processing

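The number of crypt markers called higher was 6 with all mice and ran from 4 (without double mutant mouse 1) to 8 (without wild-type mouse 1) when each mouse was left out in turn. It was 7 with DESeq2, limma-voom, library size alone or sex as a covariate, and none was called lower under any of these. The shares of all genes called higher were 16.8% with DESeq2, 20.2% with limma-voom, 28% with library size alone and 20.1% with sex as a covariate, against 19.7%. The number called with a log2 fold change of at least 2 was 3 with all mice, 5 with library size alone and 1 in the females alone, an alternative chosen after seeing the data, and ran from 1 to 4 with a mouse left out. At a log2 fold change of 1 it was 6. Over all genes, the shares called higher under these settings were 3.04% with all mice, 4.17% with library size alone, 2.88% in the females alone and 10.9% at a log2 fold change of 1. The number of crypt markers called at a log2 fold change of at least 2 was 1 when wild-type mouse 1 or double mutant mouse 1 was left out. The shares over all genes were then 2.66% and 2.82%, and they ran from 2.45% to 3.82% with each mouse left out. The cause of these shifts was not tested.

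Over all genes, 4905 were called, and 3442 (without double mutant mouse 2) to 5144 (without wild-type mouse 1) with a mouse left out. Scaling by library size alone moved the median log2 fold change of all genes from 0.02 to 0.22 and the split from 2632 higher and 2273 lower to 3732 higher and 1425 lower. *Msi1* turned from 0.36 to -0.027 without wild-type mouse 1 and to -0.068 in the females alone, with a range of -0.027 to 0.667 when each mouse was left out. The difference in the ratio *Msi1* to *Msi2* ranged from -0.541 to 0.316 when each mouse was left out.

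Same-numbered mice were of the same sex. The correlations of same-numbered mice were 0.012, -0.146 and 0.008, and those of differently numbered mice ran from -0.125 to 0.125. With 3 mice per group, these values cannot show whether the mice were paired. With the replicate block 3834 genes were called over all, 15.6% of those tested being higher and 3.15% higher at a log2 fold change of at least 2, and 6 crypt markers were higher, 3 of them at that fold change. Depth gave 4 to 20 counts per wild-type mouse for *Lgr5* and *Ascl2*.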
